A study of Saccharomyces cerevisiae BY4741 with 40 samples.

Results

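Transcription start site clusters (TSSCs) that were assigned to no gene or known non-coding transcript and that had no mRNA start behind them on the opposite strand are described here. They were taken from the table of the *RRP6* experiment, in budding yeast, as the clusters of the intergenic class (I) without an opposite-strand mRNA-TSSC (class O) whose 5′-end lies 0 to 500 nt upstream of their own. The rule uses position and class alone, and it held for 1993 of the 3011 intergenic TSSCs and of the 17812 TSSCs in all. The other 1018 intergenic TSSCs have a divergent mRNA start.

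Poly(A)+ RNA was decapped with tobacco acid pyrophosphatase (TAP) and ligated to an oligonucleotide at the exposed end, so that the reads begin at the 5′-ends of capped RNAs. In the *RRP6* experiment wild-type (WT), *upf1∆*, *rrp6∆* and *upf1∆rrp6∆* cells were sequenced, and in the *SET2* experiment WT, *upf1∆*, *set2∆* and *upf1∆set2∆* cells, with 3 libraries for each genotype in each experiment. All strains are BY4741 with a *can1* deletion, so the controls carry that deletion too, and the *upf1∆* libraries of both experiments bear the same strain reference. The table gives 1 normalised read count per TSSC and genotype, pooled over the libraries, so no value here has a replicate error and no test was run. In its place, the effect of each deletion was compared between pairs of strains that share no library.

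Upf1 is the RNA helicase at the centre of nonsense-mediated decay (NMD), which degrades cytoplasmic mRNAs whose translation ends early, for instance at the stop codon of a short ORF close to the 5′-end. Rrp6 is a nuclear subunit of the exosome, which degrades or trims short transcripts terminated through the RNA-binding proteins Nrd1 and Nab3. Set2 methylates histone H3 in transcribed genes and represses initiation within them. Yeast promoters often initiate in both directions, and many cryptic transcripts start at the nucleosome-free region of an mRNA promoter. The TSSCs described here lack that neighbour on the upstream side.

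Sequences at the starts of these RNAs are shown first, because the responses to the deletions are described below against them. The 30-nt stretches below are from the NCBI RefSeq R64 genome, 5′ to 3′ on the transcribed strand, and each TSSC is called by the features on its upstream and downstream sides. The first set has the first ORF downstream of the TSSC for 4 of the 5 members with the largest ratio of *upf1∆* to WT, those in which it can be shown whole within 30 nt, with its start and stop codons in capitals.
YGL263W_YGL262W (chrVII:4777-4806, + strand): tcaagagATGcagaagctaTAGttaatact
YGL222C_YGL223C (chrVII:80426-80455, - strand): aaaaATGaaacatggcggtgaaTAAtaaat
YLR461W_YLR460C (chrXII:1060918-1060947, - strand): ttctataaaATGgcaagcTGAatacagatt
YPR145W_YPR144C (chrXVI:821843-821872, - strand): tcattcttaagaATGTAAcaagatcaatgg
The first ORF has 1 to 6 codons in these 4 and 18 codons in the fifth, ahead of *SSB1*. In the 5 members with the largest ratio of *upf1∆rrp6∆* to WT it has 3 to 21 codons.

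The second set has members with high WT counts in which the first ATG is the start codon (in capitals) of the annotated ORF ahead. *PMP1* encodes a small regulator of the plasma membrane proton pump and *CTS1* an endochitinase.
YCR026C_YCR024C-A, ahead of *PMP1* (chrIII:163053-163082, - strand): tttaatctatcataaATGactttaccaggt
YLR287C_YLR286C, ahead of *CTS1* (chrXII:710122-710151, - strand): ataattaataatagaATGtcactcctttac
The third set has the stretch richest in short motifs bound by Nrd1 (GTAA or GTAG) and by Nab3 (TCTT or CTTG), in capitals, within the first 200 nt of the 5 members with the largest ratio in *rrp6∆*.
tP(UGG)O2_YOR071C (chrXV:463853-463882, - strand): atagcaatctaatcatgctgggTCTTCTTG
YER185W_YER186C (chrV:560725-560754, + strand): acgtcaaaacttataTCTTCTTGtccCTTG
YFL022C_YFL021W (chrVI:95248-95277, + strand): tttttttctgtttttcctgccTCTTtTCTT
YFR021W_YFRCdelta9 (chrVI:192048-192077, - strand): tgatacacactcgccatatcgctacaGTAG
YFL001W_YFR001W (chrVI:148845-148874, + strand): tgtttgggaaggaaagcagaacTCTTGTAA
These stretches hold 3, 4, 2, 1 and 3 motifs, in this order.

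The members were spread over 1241 intergenic regions, 884 of which held 1 member, on all 17 chromosomes (3 were mitochondrial). They were narrow, with a median width of 34 nt (quartiles 7 and 70 nt), and 390 were 1 nt wide. Around the 387 nuclear members of 1 nt, an A stood at position -8 in 75.5%, beside 72.7% of the 2410 nuclear TSSCs of that width. The start of the member between *PTP1* and *SSB1* is one of these, and so is that between *RTN2* and *ACK1*. They are shown with the bases at -8, -1 and +1 in capitals.
YDL230W_YDL229W (chrIV:43963-43992, + strand): ttAattagtTAttgtcgctttgcttttcct
YDL204W_YDL203C (chrIV:95940-95969, + strand): ttAaaataaTGagtaaatgacgtcgcattt
A purine after a pyrimidine at the start itself was a criterion by which the TSSCs of the table were filtered, so it is not read as a property of these members. TATAAA, searched on both strands, was in the 200 nt before the 5′-end of 30.1% of the nuclear members and of 31.2% of all nuclear TSSCs.

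By the orientation of the features on either side, 652 members lay between genes that both run in their own direction, 624 between divergent genes, 480 between genes that both run the opposite way and 236 between convergent genes. Among the 1018 intergenic TSSCs with a divergent mRNA, which the rule separates by position, these numbers were 9, 618, 390 and 1. The nearest opposite-strand mRNA-TSSC behind a member was at a median of 3939 nt, and 58 members had none on their chromosome. Opposite-strand TSSCs of other classes were closer. They lay within 500 nt behind 1191 members (59.8%), and in 510 of these the nearest was another intergenic TSSC. At the limit of the rule, a 1-nt TSSC between tP(UGG)H and YHRCdelta11, just over 500 nt from the mRNA start, was counted in and had 0, 0, 0 and 2 reads, the genotypes being in the order WT, *upf1∆*, *rrp6∆* and double mutant. One between YMR142C and YMR143W, at 500 nt, was left out and had 23, 29, 42 and 54 reads.

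The reads of the members were few. The median normalised count was 2 in WT (quartiles 0 and 9), 7 in *upf1∆* cells (2 and 22), 4 in *rrp6∆* cells (1 and 15) and 11 in the double mutant (4 and 36). In WT 515 members (25.8%) were listed at 0, against 13 (0.652%) in *upf1∆rrp6∆*. Together the members held 0.722% of the table's reads in WT, 1.21% without Upf1, 1.07% without Rrp6 and 1.71% without either. The 10 highest members had 40.1% of the members' reads in WT and 19.1% in *upf1∆rrp6∆*.

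Loss of Upf1 was the change to which most members responded in single mutants. On the scale of log2(count + 1), on which low counts give smaller ratios, the median log2 ratio of *upf1∆* to WT was 1.00 (quartiles 0.00 and 1.69), beside 0.49 over all TSSCs. Of the members, 845 (42.4%) were more than 2-fold higher, beside 31.5% of all TSSCs, and 14 (0.702%) were more than 2-fold lower, beside 0.764%. In *rrp6∆* the median log2 ratio was 0.49 (quartiles 0.00 and 1.32), with 574 members (28.8%) higher, beside 24.7% of all TSSCs, and 51 (2.56%) lower, beside 3.13%. In *upf1∆rrp6∆* it was 1.74 (quartiles 1.00 and 2.62), with 1361 members (68.3%) higher, beside 52.3%, and 16 (0.803%) lower, beside 1.57%. TSSCs entered the table if they had enough reads in any of its libraries, so the counts of higher members are in part set by how the table was made, and so are those of all TSSCs.

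The intergenic TSSCs with a divergent mRNA were higher in *upf1∆* in 40.8%, close to the members, and in *rrp6∆* in 41.2%. Of the CUT-TSSCs, the starts of cryptic unstable transcripts defined by their stabilisation without Rrp6, 26.2% were higher in *upf1∆* and 79.6% in *rrp6∆*. Of the XUT-TSSCs, the starts of Xrn1-sensitive transcripts, these shares were 58.3% and 28.9%. Of the SUT-TSSCs, the starts of stable unannotated transcripts, they were 53.3% and 29.0%. Both classes were thus higher in *upf1∆* more often than the members, and in *rrp6∆* about as often. Of the mRNA-TSSCs these shares were 13.5% and 4.29%. These differences between classes were not tested.

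**Figure D1:**
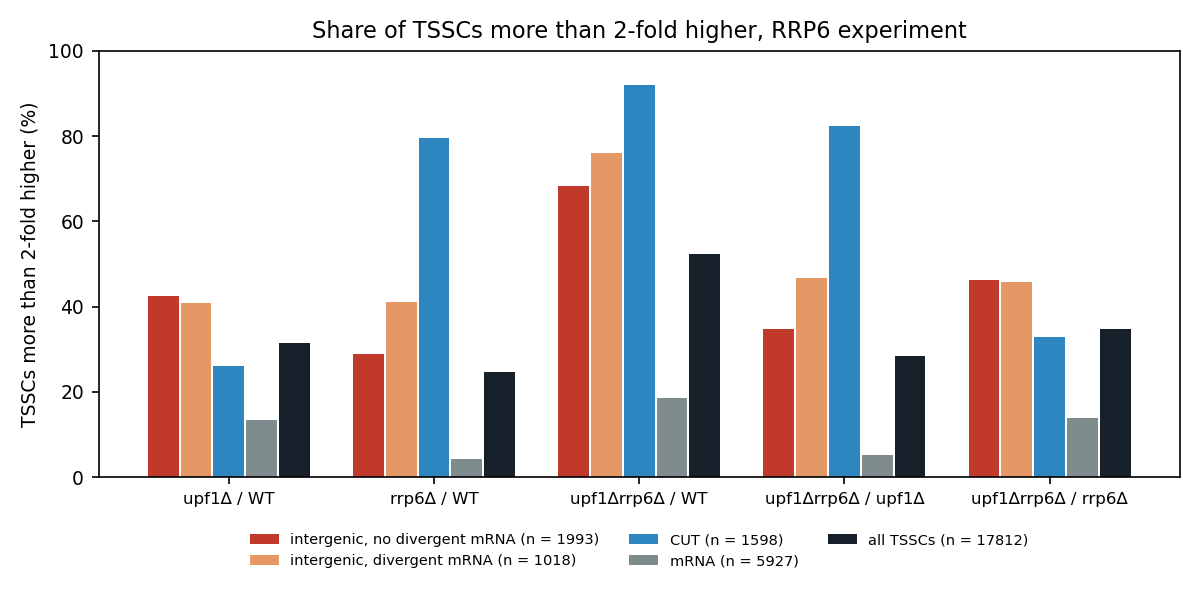
Share of TSSCs (y axis, percent) more than 2-fold higher in each comparison of the *RRP6* experiment (x axis), for the members (intergenic, no divergent mRNA), the other intergenic TSSCs, CUT-TSSCs, mRNA-TSSCs and all TSSCs. The members stood at 42.4% in *upf1∆* and 28.8% in *rrp6∆*, while the CUT-TSSCs stood at 26.2% and 79.6%. XUT- and SUT-TSSCs are not shown.

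The loss of Upf1 was also measured on the *rrp6∆* background, with other libraries. There 920 members (46.2%) were more than 2-fold higher, beside 34.8% of all TSSCs, and 5 (0.251%) were lower, beside 0.342%. Both comparisons called 631 members, which is 74.7% of those called in *upf1∆* against WT and 68.6% of those called in *upf1∆rrp6∆* against *rrp6∆*. Over all TSSCs 24.3% were called in both, and of the members 31.7%. The loss of Rrp6 on the *upf1∆* background gave 692 higher members (34.7%), beside 28.6%, and 76 lower ones (3.81%), beside 3.96%. Here 477 members were called in both backgrounds, which is 83.1% of those called in *rrp6∆* and 68.9% of those called in *upf1∆rrp6∆* against *upf1∆*. They make up 23.9% of the members, and 21.2% of all TSSCs were called in both.

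The *SET2* experiment gave a further repeat of the Upf1 effect. A TSSC of that experiment overlapped 1171 members (58.8%) on the same strand by at least 1 nt, and 1140 of these were again in the intergenic class. Of the matched members 607 (51.8%) were more than 2-fold higher in *upf1∆*, beside 35.0% of all 12852 matched TSSCs, and 6 were lower (0.512%, beside 0.537%). The log2 ratios of the 2 experiments differed by an SD of 0.59 over the 1171 members. The SD was 0.85 for the 106 members with a mean count under 3, 0.72 for the 359 with 3 to 10, 0.46 for the 615 with 10 to 100 and 0.25 for the 91 with 100 or more, so a ratio near 2-fold of a low member is within its error. Pearson's r was 0.84 and Spearman's rho 0.83 across the 1171 TSSCs, which share libraries and are not independent replicates. Over all 4 comparisons of Upf1 loss, 373 matched members (31.9%) were more than 2-fold higher in each, beside 22.3% of all matched TSSCs, and 355 (30.3%) were higher in none, beside 53.5%.

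**Figure D2:**
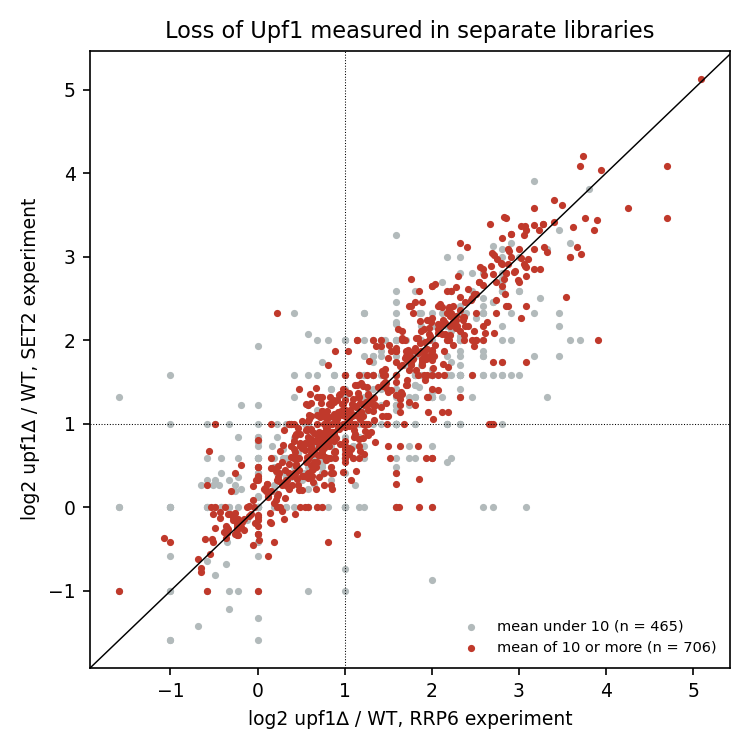
log2 ratio of *upf1∆* to WT for the 1171 matched members in the *RRP6* experiment (x axis) and in the *SET2* experiment (y axis), 1 point per TSSC, grey where the mean count over the 4 genotypes of the *RRP6* experiment is under 10 and red where it is 10 or more. Dotted lines mark 2-fold and the solid line equal values, around which the red points lie closer than the grey ones.

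The members without a match in the *SET2* experiment had fewer reads and gave other shares. Their median counts were 0, 1, 2 and 5 in WT, *upf1∆*, *rrp6∆* and *upf1∆rrp6∆*. Those of the matched members were 6, 17, 8 and 22. Of the 822 unmatched members, 27.6% were higher in *upf1∆* and 38.4% in *rrp6∆*. Of the 1171 matched members 52.8% and 22.0% were, and of all TSSCs 31.5% and 24.7%. What part the lower counts have in these shares was not tested. The *SET2* experiment held no strain without Rrp6, and a TSSC needed reads in one of its own libraries to be listed.

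Loss of Set2 moved few of the matched members. These were listed in the *RRP6* experiment, which held no strain without Set2, so starts seen only without Set2 are not among them. The same holds for the matched TSSCs set beside them. Of all 21707 TSSCs of the *SET2* experiment, 27.7% were more than 2-fold higher in *set2∆* than in WT. In *upf1∆set2∆* against *upf1∆* it was 34.9%. In *set2∆* 124 of the matched members (10.6%) were more than 2-fold higher than in WT, beside 13.7% of all matched TSSCs, and 35 (2.99%) were lower, beside 1.91%. Without Upf1, 8.63% were higher in *upf1∆set2∆* than in *upf1∆*, beside 12.0%, and 75 (6.40%) were lower, beside 3.51%. Of the 124, 49 (39.5%) were higher there too, while of all matched TSSCs called in *set2∆* 60.1% were. Called in both were 4.18% of the members and 8.23% of all matched TSSCs. The loss of Upf1 on the *set2∆* background raised 556 members (47.5%) past 2-fold, beside 31.8%, and lowered 7 (0.598%), beside 0.584%. In *upf1∆set2∆* against WT 642 (54.8%) were higher, beside 41.3%, and 12 (1.02%) lower, beside 1.01%.

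The 3 members highest in *set2∆* relative to WT had 21 to 120 reads there and 1 to 13 in WT. The 1-nt member between *RTN2*, a reticulon gene, and *ACK1* was matched to a separately built TSSC of the *SET2* experiment, whose width was not compared. That TSSC had 1 read in WT, 3 in *upf1∆*, 38 in *set2∆* and 356 in *upf1∆set2∆*. The member itself had no more than 2 reads in any genotype of the *RRP6* experiment. The TSSC between *PSP2* and *PPZ1*, a protein phosphatase gene, had 13, 22, 120 and 108 reads, and was thus high in both strains without Set2. That between tL(UAA)N and *ESF2*, a gene for ribosomal RNA processing, had 2, 7, 21 and 92 reads.

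In the double mutant most members were close to the sum of the single effects, that is, WT plus the gain in *upf1∆* and the gain in *rrp6∆*. The median log2 ratio of *upf1∆rrp6∆* to this sum was 0.25 (quartiles -0.18 and 0.72), beside 0.19 over all TSSCs. It was over 2-fold in 230 members (11.5%), beside 10.4% of all TSSCs, so the members stood near the background. Only 12 members (0.602%, beside 0.589% of all TSSCs) had under 4 reads in WT and both single mutants and at least 10 in the double mutant, where they had 10 to 17. The 5 members furthest above the sum were seen in all strains. The TSSC between YCRWdelta11 and tQ(UUG)C had 25, 35, 48 and 200 reads in WT, *upf1∆*, *rrp6∆* and *upf1∆rrp6∆*, against a sum of 58, and the first 50 nt of its sequence occur 29 times in the genome. The TSSC between *PAU24* and *COS2*, 3289 nt from a chromosome end, had 3, 12, 8 and 69 reads against a sum of 17. The other 3 had 65 to 68 reads in the double mutant, against sums of 20 to 24.

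The 5 members highest in *upf1∆* relative to WT had 29 to 230 reads there and 1 to 14 in WT. The TSSC between *COS12* and YGL262W, 4540 nt from the end of chromosome VII, had 3 reads in WT and 135 in *upf1∆*, but 1 in *rrp6∆* and 4 in the double mutant. In the *SET2* experiment it had 2 in WT, 104 in *upf1∆*, 2 in *set2∆* and 69 in *upf1∆set2∆*. Thus 3 of the 4 pooled counts without Upf1 were high, and that without Rrp6 as well was low. The TSSC 94 nt ahead of *COG1*, whose product is a subunit of a Golgi tethering complex, had 1 read in WT, 37 in *upf1∆*, 3 in *rrp6∆* and 58 in the double mutant. Both strains without Upf1 were high, also in the *SET2* experiment (1, 23, 2 and 38 reads).

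The 1-nt TSSC 92 nt ahead of *SSB1*, which encodes a ribosome-associated Hsp70 chaperone, had 3, 61, 9 and 110 reads. It had no match in the *SET2* experiment. The TSSC 128 nt ahead of YLR460C had 14, 230, 15 and 229 reads in the *RRP6* experiment and 11, 196, 13 and 161 in the *SET2* experiment. Its 8 pooled counts, in which WT and *upf1∆* each occur in both experiments, were 11 to 15 with Upf1 and 161 to 230 without it. The WT and *upf1∆* counts of the *RRP6* experiment are those by which this TSSC was chosen, so their gap is not separate support. The counts of the *SET2* experiment had no part in the choice. The fifth, between *ASN1*, for asparagine synthetase, and *NOC4*, a ribosome biogenesis gene, had 1, 29, 12 and 60 reads. It starts 51 nt from the opposite-strand gene *SNR45* and was lower in the *SET2* experiment, with 1, 7, 1 and 3 reads.

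The presence of an ATG ahead of the next ORF went with the response to Upf1. For 989 members the next annotated feature was an ORF on their own strand, at a median of 377 nt from the downstream edge of the TSSC. In 89 of these the stretch up to the ORF holds no ATG, as in the *PMP1* and *CTS1* sequences above, in 91 it holds 1 and in 809 it holds 2 or more, as ahead of *COG1*. ATGs were counted in the genomic sequence, from which introns in leaders were not removed. More than 2-fold higher in *upf1∆* were 14 of the 89 (15.7%), 47 of the 91 (51.6%) and 450 of the 809 (55.6%), beside 31.5% of all TSSCs. The median log2 ratios were 0.16, 1.16 and 1.32. The libraries that share no sample with this comparison gave the same order. In *upf1∆rrp6∆* against *rrp6∆* the shares were 7.87%, 45.1% and 56.1%, beside 34.8% of all TSSCs. In *upf1∆* against WT of the *SET2* experiment they were 14.3%, 58.3% and 68.7% (63, 60 and 444 members), beside 35.0% of all matched TSSCs. In *upf1∆set2∆* against *set2∆* they were 9.52%, 55.0% and 64.9%, beside 31.8%.

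The 89 members without an ATG were nearer to the ORF (median 154 nt, against 429 nt for the 900 with 1 or more) and had more reads in WT (median 11, against 1). Among members over 100 and up to 300 nt away, 10 of 72 without an ATG (13.9%) and 208 of 308 with 1 or more (67.5%) were higher in *upf1∆*. Among those at this distance with a mean count of at least 10, it was 4 of 45 (8.89%) and 94 of 124 (75.8%). This mean is over all 4 genotypes, so a member low in WT passes it only if raised in a mutant. The median WT counts of those that passed were 34 and 7, so the limit does not make the 2 groups alike in count. For the loss of Rrp6 the shares follow without an ATG, with 1 and with 2 or more. In *rrp6∆* against WT they were 20.2%, 23.1% and 27.6% (beside 24.7% of all TSSCs). In *upf1∆rrp6∆* against *upf1∆* they were 19.1%, 26.4% and 32.4% (beside 28.6%). With a mean count of at least 10 those in *rrp6∆* against WT were 11.5%, 22.0% and 31.3%, and with the limit on distance as well 13.3%, 20.5% and 37.6%. The order by ATG was thus seen for the loss of Rrp6 too, over a narrower range than for the loss of Upf1. Of the 14 members without an ATG that were nonetheless higher, the 2 with most reads were ahead of *BSC5* (26, 179, 43 and 239 reads in WT, *upf1∆*, *rrp6∆* and *upf1∆rrp6∆*) and *SPR6*, a sporulation gene (34, 131, 40 and 111 reads). The other 12 had at most 29 reads in any strain.

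**Figure D3:**
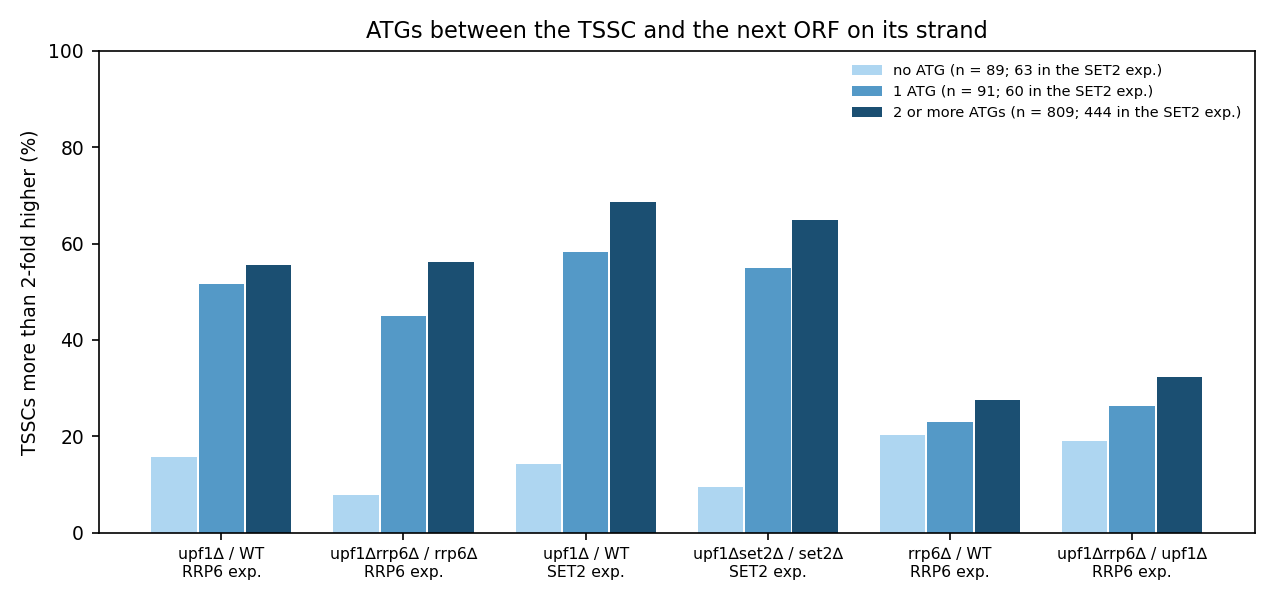
Share of members ahead of a same-strand ORF that were more than 2-fold higher (y axis, percent) in 4 comparisons of Upf1 loss and 2 of Rrp6 loss (x axis), by the number of ATGs between the TSSC and the ORF. In each comparison of Upf1 loss the bar without an ATG is the lowest, between 7.87% and 15.7%, and in the comparisons of Rrp6 loss the bars go from 20.2% to 27.6% and from 19.1% to 32.4%.

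The members with the highest counts in WT mostly lie ahead of an annotated gene in its own direction. Of the 42 members with at least 100 reads in WT, 27 had an ORF on their strand as the next feature, at a median of 178 nt, and 15 of those ORFs had no mRNA-TSSC of their own in the table. The TSSC 139 nt ahead of *PMP1* had 5002, 6066, 4722 and 4376 reads in WT, *upf1∆*, *rrp6∆* and *upf1∆rrp6∆*. These differ by less than 2-fold, and the TSSC 179 nt ahead of *CTS1* had 710, 442, 697 and 557 reads. The TSSC 459 nt ahead of *COX4*, which encodes a subunit of cytochrome c oxidase, had 2908, 2474, 2159 and 2280 reads. The genomic stretch in between holds 7 ATGs. The TSSC 67 nt ahead of the pseudogene *CCW22* had 1694, 3425, 1311 and 1801 reads. It was higher in *upf1∆* in the *SET2* experiment too, with 1544, 3267, 2468 and 3032 reads in WT, *upf1∆*, *set2∆* and *upf1∆set2∆*. On the *rrp6∆* and *set2∆* backgrounds the log2 ratios for the loss of Upf1 were 0.46 and 0.30, both under 2-fold.

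The 5 members highest in *rrp6∆* relative to WT had 40 to 154 reads there and 0 to 8 in WT. The TSSC between tP(UGG)O2 and *NRT1*, a transporter gene, was listed at 0 in WT and *upf1∆* and had 67 reads in *rrp6∆* and 64 in the double mutant. The TSSC between *PUG1*, a gene for haem transport, and YER186C had 3 and 3 reads with Rrp6 and 97 and 133 without it. The third, 812 nt ahead of *GAT1*, which encodes an activator of nitrogen-regulated genes, had 1, 10, 40 and 52 reads. Between the autophagy gene *ATG18* and YFRCdelta9 the counts were 2, 1, 51 and 79. The TSSC 202 nt ahead of *LOC1*, a ribosome biogenesis gene, had 8, 38, 154 and 214 reads and was higher in each mutant than in WT. In 3 of these 5, loss of Upf1 alone moved the count by at most 1 read.

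The motifs of Nrd1 and Nab3 were counted in the first 200 nt of the transcribed strand of each nuclear member with a full window. GTAA was in 63.0% of the members (59.8% of all nuclear TSSCs), GTAG in 43.5% (42.9%), TCTT in 74.6% (67.8%) and CTTG in 54.5% (51.9%). Matches may overlap, as in the tP(UGG)O2 stretch. Of the 311 members with 0 to 1 matches in all, 30 (9.65%) were more than 2-fold higher in *rrp6∆*, of the 655 with 2 to 3 it was 137 (20.9%), of the 596 with 4 to 5 it was 178 (29.9%) and of the 426 with 6 or more it was 229 (53.8%). Many members of the first bin share their sequence with other copies, and among the members whose first 50 nt occur once the bins gave 28 of 178 (15.7%), 20.0%, 27.2% and 50.6%. Over all nuclear TSSCs the same bins gave 8.83%, 15.8%, 28.5% and 50.9%. In *upf1∆rrp6∆* against *upf1∆*, which shares no library with the first comparison, the members gave 15.4%, 26.4%, 35.9% and 59.9%. The share higher in *upf1∆* was 36.7%, 50.4%, 45.0% and 31.2%, with no such order. The mean GC content of the windows went from 38.0% in the first bin to 36.4% in the last. A match is not a binding site, and what part base composition has in the order was not tested.

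Small nuclear and nucleolar RNAs are made from longer precursors, some of which Rrp6 trims. 17 members lay within 300 nt ahead of such a gene, of the telomerase RNA gene or of the RNase P RNA gene on the same strand. In *rrp6∆* 15 of the 17 were more than 2-fold higher than in WT (beside 24.7% of all TSSCs), with a median log2 ratio of 2.46. In *upf1∆* against WT 0 of the 17 were (beside 31.5%). On the *upf1∆* background, 16 of the 17 were higher without Rrp6 (beside 28.6% of all TSSCs). Some of these calls rest on few reads. A TSSC ahead of *SNR161* had 0, 0, 4 and 1 reads in WT, *upf1∆*, *rrp6∆* and the double mutant. One ahead of *SNR3* had 0, 0, 0 and 2. *SNR3* and *SNR57* each had more than 1 of the 17 ahead of them. All 11 with a mean count of at least 20 were higher in *rrp6∆*, and the values of these 11 with and without Rrp6 did not overlap for any of them. This mean is over all genotypes, so these 11 are in part picked by the counts that are compared. The member ahead of *SNR65*, for instance, had 8 and 9 reads in WT and *upf1∆*. It passed through its 68 and 80 reads in *rrp6∆* and the double mutant. The share of all TSSCs whose values did not overlap is not given here.

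The TSSC 240 nt ahead of *SNR63* had 51 reads in WT, 69 in *upf1∆*, 735 in *rrp6∆* and 992 in the double mutant. That ahead of *SNR79* had 39, 41, 368 and 408 reads, and that ahead of *SNR40* had 118, 114, 655 and 713. The TSSC ahead of *RPR1*, the gene of the RNase P RNA, had 10, 10, 91 and 115 reads. The library was made from RNA with a poly(A) tail, so only tailed forms of these RNAs were counted. The TSSC that begins 58 nt ahead of the annotated start of *TLC1*, the telomerase RNA gene, and runs over that start, had 1077, 835, 2259 and 2357 reads. It was also high in *set2∆*, with 971, 753, 2115 and 1247 reads in WT, *upf1∆*, *set2∆* and *upf1∆set2∆*, and it is the 1 of the 11 matched members of this group that was more than 2-fold higher in *set2∆*.

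**Figure D4:**
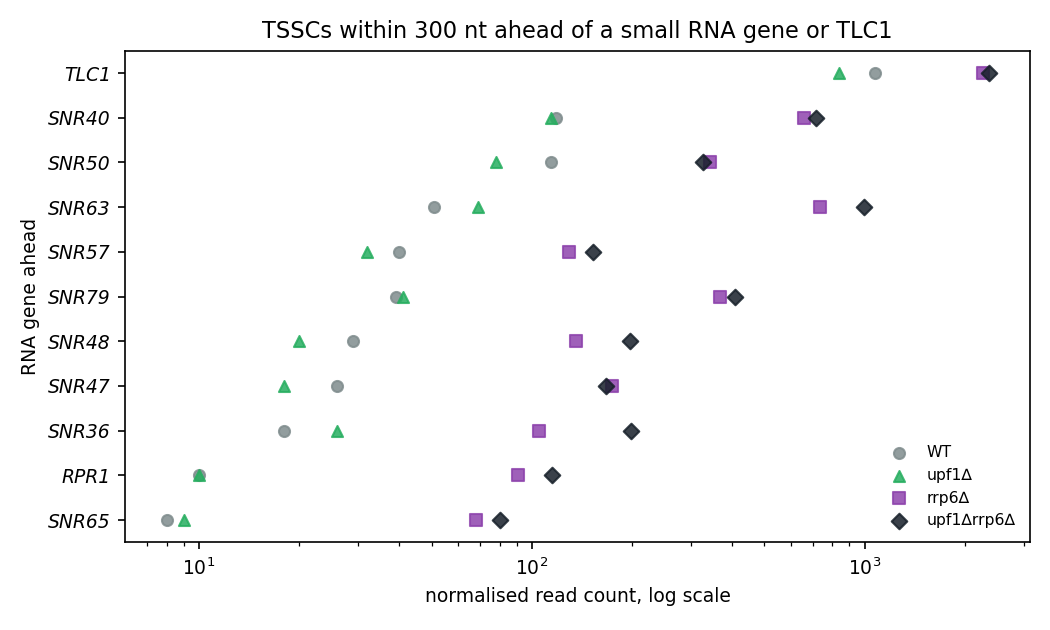
Normalised read counts (x axis, log scale) in the 4 genotypes of the *RRP6* experiment for the 11 members with a mean count of at least 20 that lie within 300 nt ahead of a small RNA gene or *TLC1* (y axis, by gene). The mean is over all 4 genotypes, so members high in *rrp6∆* and *upf1∆rrp6∆* pass it more easily. For *SNR63*, WT and *upf1∆* had 51 and 69 reads against 735 and 992 in *rrp6∆* and *upf1∆rrp6∆*. For *TLC1* they had 1077 and 835 against 2259 and 2357.

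The table's intergenic class holds more than regions between genes. The 5′-end of 1339 members lay in no feature of the R64 annotation and in no Ty element. In 183 it lay inside an ORF of the opposite strand, at a median of 56 nt from its ATG (quartiles 26 and 103 nt) and within 200 nt of it in 153. They point from within the ORF towards its start, and how far these RNAs extend was not measured. Of these, 78 (42.6%) were more than 2-fold higher in *upf1∆* and 34 in *rrp6∆* (18.6%), and the median counts were 1, 5, 3 and 8. Of the members in no feature 45.6% and 29.7% were higher, and of all TSSCs 31.5% and 24.7%. In 43 members the 5′-end was inside an ORF of the same strand.

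Ty elements, the long terminal repeat (LTR) retrotransposons of yeast, and their solo LTRs held the 5′-ends of 5 sets of members, of which 4 are described. Here reads of near-identical copies cannot be told apart. The first 50 nt of 528 members occur more than once in the genome, among them 87 of 89, 133 of 138 and 83 of 85 in the 3 sets from full elements below, so their counts are those of a family placed at one copy or another, and these members are not separate observations. Those inside the LTRs of full elements on the opposite strand numbered 89. Their median counts were 12, 25, 34 and 69 in WT, *upf1∆*, *rrp6∆* and *upf1∆rrp6∆*. Of these members 64 (71.9%) were higher in *rrp6∆* and 26 (29.2%) in *upf1∆*, beside 24.7% and 31.5% of all TSSCs. The 138 antisense members in the body of the elements had medians of 7, 10, 7 and 8, with 20 (14.5%) and 41 (29.7%) higher. The 85 sense members in the body had medians of 5, 13, 6 and 21, with 2 (2.35%) higher in *rrp6∆* and 39 (45.9%) in *upf1∆*.

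The 72 members antisense to solo LTRs had medians of 5.5, 10.5, 6 and 15. Of them 30 (41.7%) were higher in *rrp6∆* and 22 (30.6%) in *upf1∆*, beside 24.7% and 31.5% of all TSSCs. Only 2, 5 and 2 members of the 3 sets from full elements have a first 50 nt that occurs once, too few to give shares for them apart from the other copies.

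**Figure D5:**
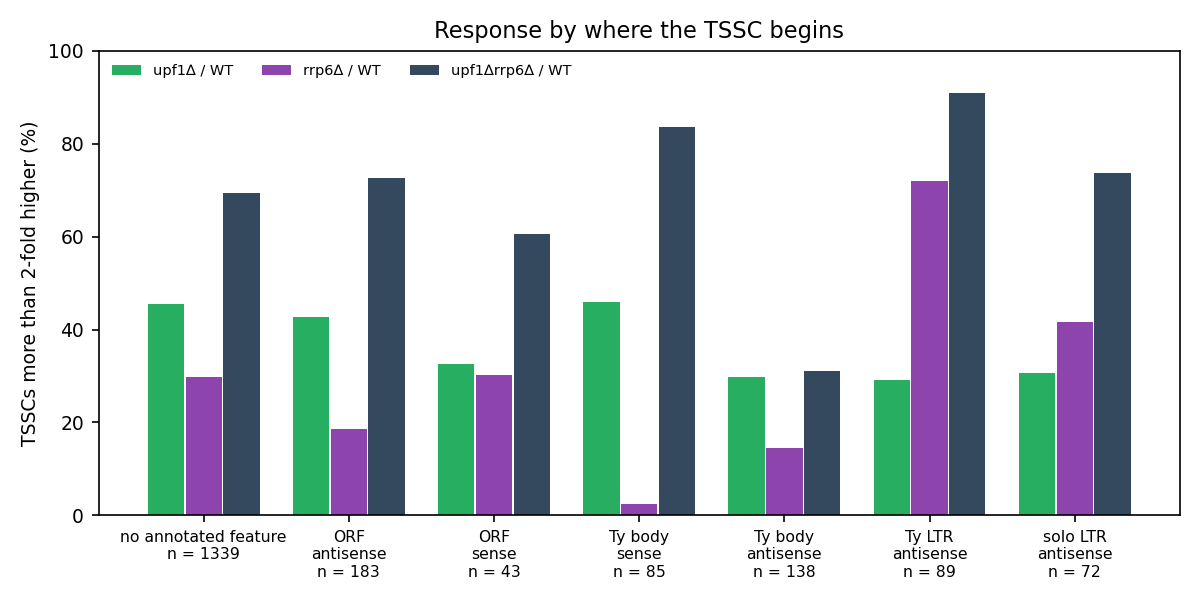
Share of members more than 2-fold higher (y axis, percent) in *upf1∆*, *rrp6∆* and *upf1∆rrp6∆* relative to WT, by the R64 feature in which the 5′-end lies and its strand (x axis, with the number of members). Sense members in the body of Ty elements stood at 45.9% in *upf1∆* and 2.35% in *rrp6∆*, and antisense members in Ty LTRs at 29.2% and 71.9%.

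Members near chromosome ends were more often higher in *upf1∆* than the others, without a test of the difference. Within 20000 nt of an end lay 263 members (13.2%, beside 5.01% of all TSSCs). Of these, 148 (56.3%) were more than 2-fold higher in *upf1∆*, against 40.3% of the other 1730 and 31.5% of all TSSCs. The share among all TSSCs near an end is not given here, so the difference is not read as particular to the members. In *rrp6∆* the members near an end and the others gave 31.6% and 28.4%, beside 24.7% of all TSSCs. By orientation, members between divergent genes (47.6%) and between genes of their own direction (46.3%) were higher in *upf1∆* more often than those between genes of the opposite direction (33.5%) or convergent genes (36.0%). In *rrp6∆* the 4 groups gave 31.7%, 25.0%, 29.4% and 30.5%.

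Few members were lower in a mutant. The lowest in *rrp6∆* relative to WT was between YDL241W and *AAD4*, an aryl-alcohol dehydrogenase gene, with 45 reads in WT, 166 in *upf1∆*, 9 in *rrp6∆* and 59 in the double mutant. It was thus high without Upf1 and low without Rrp6 on either background. The TSSC 508 nt ahead of *MUP1*, the methionine permease gene, had 54, 88, 12 and 25 reads. The third, antisense to ribosomal RNA in the rDNA repeat, had 130, 191, 40 and 62 reads, and 109, 159, 57 and 64 in the *SET2* experiment, where the strains without Set2 were the lower ones. The 3 lowest in *upf1∆* had 2 or 3 reads there against 4 to 6 in WT, which is within the error of such counts, and 41 to 89 in *rrp6∆*. They lay beside *HMRA1* and ahead of *RTA1* and of *RAT1*, the gene of the nuclear 5′ exonuclease.

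The 5 largest ratios of *upf1∆rrp6∆* to WT include the tP(UGG)O2 and *PUG1* members above. The other 3 were on chromosome IX. The TSSC 195 nt ahead of *SNP1*, a gene of the U1 spliceosomal particle, had 1, 25, 17 and 84 reads in WT, *upf1∆*, *rrp6∆* and *upf1∆rrp6∆*. That between YIRCdelta6 and *YPS6* had 1, 16, 17 and 81, and that 266 nt ahead of YIR042C, 3449 nt from the chromosome end, had 1, 12, 21 and 66. In each of the 3 both single mutants were above WT and the double mutant was above both.

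In the first RNA of the members, the first ATG lay at a median of 32 nt from the downstream edge of the TSSC, beside 33 nt over all nuclear TSSCs, and its ORF had a median of 14 codons (quartiles 5 and 29), beside 17. The ORF had fewer than 100 codons in 94.9% of the 1965 members in which such an ORF was found, beside 83.4% of all nuclear TSSCs and 57.1% of the mRNA-TSSCs. The share was 97.7% among the intergenic TSSCs with a divergent mRNA and 97.9% among the CUT-TSSCs, so it is not particular to the members. Among the members higher in *upf1∆* the median was 13 codons, and among the others 15.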

How the data were processed

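Pooled values from 24 libraries of 5′-ends, 3 per genotype in each of 2 experiments, were used, and 16 further libraries of the series (with or without TAP, and RNAseq) were not analysed here. Per the methods and the labels, the authors removed duplicates by a random tag, mapped reads with Bowtie2 to *S. cerevisiae* R64 and *S. pombe*, and built TSSCs from 5′-ends separated by gaps of up to 50 nt and holding 4 reads or more in one library. TSSCs were filtered on their signal with TAP against that without and on the share of starts with a purine after a pyrimidine. The deposited values are a score, a whole number of reads per TSSC and genotype that the authors normalised with DESeq2 size factors from reads just upstream of ORFs. No source states that it averages the 3 libraries, which is taken to be so. The depth of single libraries and their spread cannot be read from it, and no interval was given. Further columns with the authors' own contrasts (fold changes with raw and adjusted p) were set aside.

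Ratios are log2 of (count + 1), called past 2-fold, computed with Python 3.11.15, numpy 2.4.6 and pandas 2.3.3. The scripts were tested on simulated data. Coordinates are 1-based in R64. Of 5231 ORFs with an mRNA-TSSC, 5206 had an ATG at the table's ORF start in the reference, and no TSSC reached past a chromosome end. Features, Ty elements and sequences are from NCBI RefSeq R64, and feature names on either side are the table's. The number of copies is that of the 50 nt from the 5′-end, on both strands.

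Members, gene lists and comparisons were chosen with earlier results of these data known. Most named members were taken from the 525 that averaged 20 or more reads across the *RRP6* genotypes. They were the 5 with the largest ratio in *upf1∆*, *rrp6∆* and *upf1∆rrp6∆* against WT and over the summed effects. With them are the 3 with the lowest in *upf1∆* and *rrp6∆* and the 5 with the highest WT count. The 3 with the largest *set2∆* ratio averaged 20 or more in the *SET2* experiment, with no minimum in the *RRP6* experiment. Members named beside a small RNA gene or as exceptions to the ATG split were chosen after their values were seen. Alternatives were a pseudocount of 0.1, a mean of at least 10, ratios relative to the mRNA-TSSC median, windows of 300 and 1000 nt, opposite-strand TSSCs of any class, TSSCs found once in the genome and a larger overlap between the experiments.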

Additional observations from a re-analysis of the deposited data

How the results depend on the processing

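No paired analysis was possible because the tables give 1 pooled value per genotype and no value per library. For the same reason no library was left out. Most members have few reads, which limits the precision of their ratios.

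In the *RRP6* experiment, the shares of higher members among all 1993 stayed within 1.5 times of the values above with windows of 300 and 1000 nt, with opposite-strand TSSCs of any class, with members found once in the genome, with a mean of at least 10 and relative to the mRNA-TSSC median. Shares within smaller sets moved more with members found once: 9.65% to 15.7% higher in *rrp6∆* for 0 to 1 motif matches, 29.2% to 50% higher in *upf1∆* for antisense members in Ty LTRs and 2.35% to 0% higher in *rrp6∆* for sense members in Ty bodies, the last 2 with 2 members left. The shares of lower members, which are small, moved more. With a pseudocount of 0.1 they were 3.31% in *upf1∆* against WT, 6.07% in *rrp6∆* against WT, 1.66% in *upf1∆rrp6∆* against WT and 1.00% in *upf1∆rrp6∆* against *rrp6∆*, and the median log2 ratio of *upf1∆rrp6∆* to WT was 2.47. In the *SET2* experiment that pseudocount gave lower members of 1.54% in *upf1∆*, 8.20% in *set2∆* and 1.79% in *upf1∆set2∆* against WT and 1.37% in *upf1∆set2∆* against *set2∆*, and 16.4% were higher in *set2∆*. With a mean of at least 10, 0.25% were lower in *upf1∆* against WT and 0.125% in *upf1∆rrp6∆* against *rrp6∆*. The median mRNA-TSSC shifted by 0.28 on the log2 scale in *upf1∆rrp6∆* against WT. Relative to it the lower members were 3.31%, 6.07% and 2.76% in *upf1∆*, *rrp6∆* and *upf1∆rrp6∆* against WT, 6.62% in *upf1∆rrp6∆* against *upf1∆* and 1.15% against *rrp6∆*. In the split by ATG, whose alternatives were chosen after seeing the data, the members without an ATG were higher in *upf1∆* in 9.62% with a mean of at least 10 and in 8.89% when the distance was limited as well. The cause of these shifts was not tested.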
